A study of Arabidopsis thaliana with 22 samples.

Results

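The 100 transcripts described here had the largest increases shared by 6 and 24 h of Fe deficiency in Arabidopsis roots once the genes that the study had tabulated were set aside. For every probe set with a mean intensity of 100 or more, the log2 difference between Fe-deficient and Fe-sufficient roots was taken at 6 h and at 24 h, and the probe sets were ranked by the smaller of both differences. Of 22746 probe sets on the array without its controls, 14100 passed the intensity filter, and 14039 were ranked after the tabulated genes, BGLU42 and At4g33666 had been left out. The 100 highest were kept, so that the members were chosen by their increases at 6 and 24 h, which are given as descriptions without a test. The last 3 inside were 257105_at, At3g52030 and 261815_at, whose smaller differences were 0.342, 0.342 and 0.339 on the log2 scale. The first 3 outside were 248727_at, At1g23530 and At3g63360, at 0.336, 0.336 and 0.335, so that no gap marks the edge of the set.

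Roots of Landsberg erecta plants in hydroponic culture were harvested from Fe-free medium (labelled iron minus, here Fe-deficient or -Fe) and from medium with 40 uM Fe-EDTA (labelled iron plus, here Fe-sufficient or +Fe). Plants of both media had been raised with Fe, were washed in 0.1 mM EDTA and were moved 1 h into a light period of 10 h. Total RNA of about 20 plants per harvest went onto 1 ATH1 array, with 3 arrays per medium at 0, 1 and 6 h and 2 per medium at 24 h, 22 in all; the labels call them biological replicates. According to the methods, Fe-deficient plants were taken for RNA only where their root Fe3+-chelate reductase activity had risen by 24 h, which limits the Fe-deficient groups to plants with that response, and the whole root was taken, so that fewer cells of a type and less transcript per cell cannot be told apart.

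Arabidopsis acquires Fe by acidifying the soil around the root, reducing ferric chelates at the root surface with FRO2 and importing the ferrous ion with IRT1, under the control of the bHLH factor FIT and its partners. Roots short of Fe also make and export phenolics derived from the phenylpropanoid pathway, among them coumarins, which mobilise Fe at high pH. IRT1 and FIT are among the genes that the study had tabulated, which are absent from the 100 members by construction. The members include enzymes of specialised metabolism, protein kinases, RING and F-box proteins, transporters and many probe sets that the annotation used does not name.

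A gene was assigned to 48 of the 100 members, 1 further probe set had several gene symbols, and 51 had none in the annotation used and are given by their probe set. Of the 48 loci, 15 lie on chromosome 1, 6 on chromosome 2, 12 on chromosome 3, 4 on chromosome 4 and 11 on chromosome 5. Mean intensities were below 200 in 30 members and above 1000 in 16. Intensities of different probe sets are not comparable as transcript amounts, and values below are compared only within a probe set. In 7 members the mean intensity fell under 100 when a single harvest was left out. These were 253259_at for 0 h, At2g38240 for 1 h, 252604_at, 259561_at and At1g74780 for 6 h, and At5g62420 and At2g34840 for 24 h.

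Before the changes are described, 8 arrays have to be set apart. At 0, 1 and 6 h the replicate 1 arrays of both media shared a pattern that the other replicates lacked, and at 24 h it was carried by replicate 1 of the Fe-deficient roots and replicate 2 of the Fe-sufficient roots (across probe sets, their difference from the other array of their group correlated with it by 0.469 and 0.483). Each group holds exactly 1 of the 8 arrays. Of the members, 10 were higher on all 8 than on each of the other 14 arrays and 1 was lower, against 3.35% and 1.63% of all 22746 probe sets. Among the 14100 probe sets past the intensity filter the shares were 4.32% and 2.29%. Whether the plants or the handling differed for these arrays was not tested. Array medians ranged over 181 to 210 in intensity.

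The 5 members with the widest gap between the 2 sets of arrays were read at near-background values on 14 arrays. At3g32030, of the terpene synthase family, had 1306 to 2763 on the 8 arrays and 1.4 to 12.8 on the other 14. Probe set 254510_at spanned 623 to 819 on the 8 arrays and 1.1 to 11.1 on the others, and 248978_at spanned 2218 to 4876 and 4.5 to 44.1. At1g57630, a TIR domain protein of a family that acts in pathogen recognition, had 392 to 925 on the 8 and 4.0 to 67.4 on the 14, and At2g34840, a coatomer epsilon subunit, 242 to 318 and 1.9 to 14.1. In these 5 the gap between the sets of arrays was far wider than any difference between the media. All their readings on the other 14 arrays lay under the intensity filter of 100, which they passed only through the 8 arrays.

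**Figure D1:**
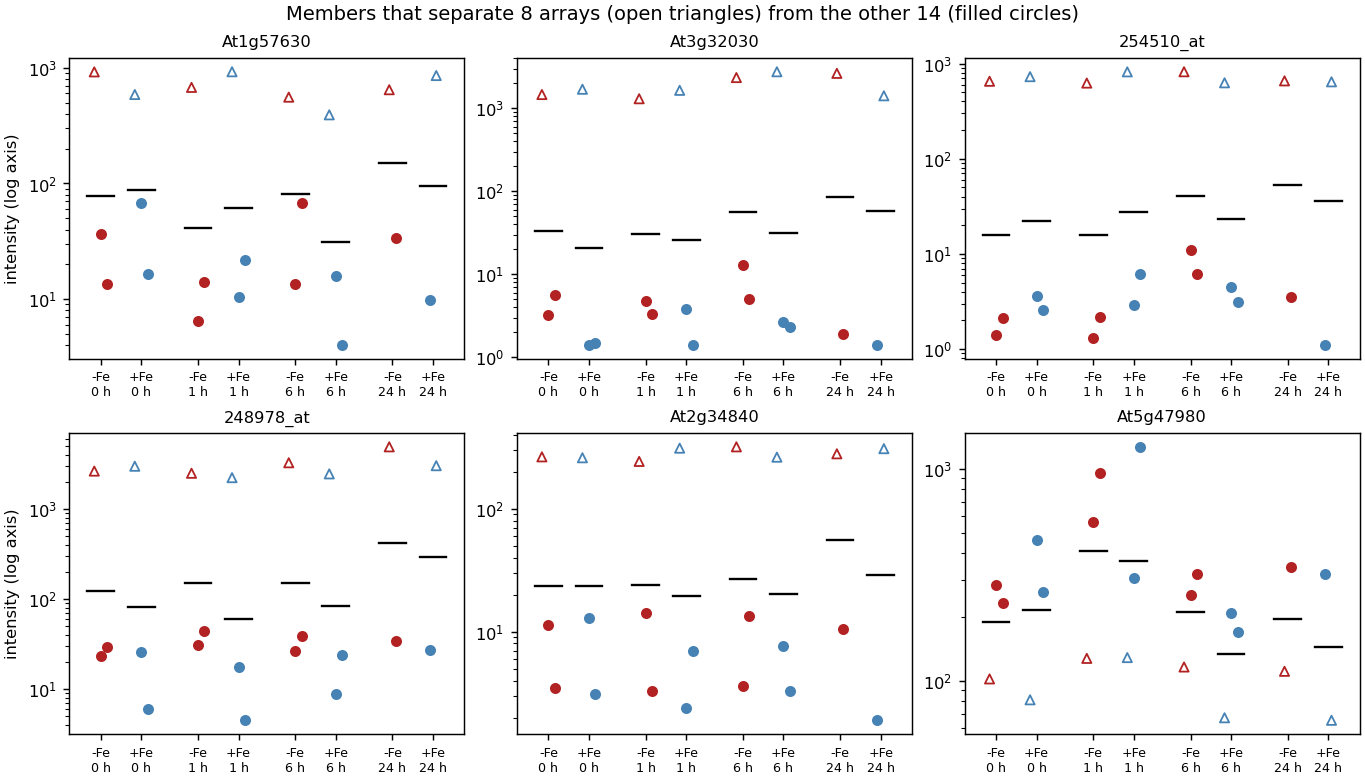
Intensity on a log axis of 6 members on every array, with Fe-deficient roots (-Fe, red) left of Fe-sufficient ones (+Fe, blue) at each time; open triangles are the 8 arrays set apart, filled circles the other 14, and bars the mean of log2 values per group. At3g32030 lies at 1306 to 2763 on the triangles and at 1.4 to 12.8 on the circles, while At5g47980 runs the other way.

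The differences that placed these 5 among the members joined high and near-background readings. At 24 h At3g32030 had 2644 and 1.9 in Fe-deficient roots, against 1.4 and 1418 in Fe-sufficient roots, so that each medium held 1 high and 1 low array, and at 6 h it had 2351, 12.8 and 5.0 in Fe-deficient roots, against 2763, 2.7 and 2.3 in Fe-sufficient roots. Its log2 difference at 6 h was -0.23 within the 8 arrays and 1.38 within the others, and at 24 h it was 0.90 within the 8 and 0.27 within the others. For 248978_at these were 0.41 and 1.07 at 6 h and 0.70 and 0.35 at 24 h. At1g57630 was at 558, 13.4 and 67.3 in Fe-deficient roots, against 392, 16.0 and 4.0 in Fe-sufficient roots at 6 h and at 647 and 34.0 in Fe-deficient roots, against 9.8 and 858 in Fe-sufficient roots at 24 h; its 24 h difference was -0.41 within the set of 8 and 1.70 outside it. For 254510_at the 24 h values were 657 and 3.5 in Fe-deficient roots, against 1.1 and 642.5 in Fe-sufficient roots, and for 248978_at they were 4876 and 34.5 in Fe-deficient roots, against 26.8 and 3011 in Fe-sufficient roots. The media overlapped in all of these readings.

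A milder form of the same split was seen in 6 further members. At3g21600, At4g10510 of the subtilase family of proteases, 249203_at, 245556_at and 261868_s_at were higher on all 8 arrays, by 1.41 to 2.98 on the log2 scale. Medians on the other 14 arrays were 80 for At3g21600, 74.6 for At4g10510, 85.65 for 249203_at and 68.65 for 261868_s_at. These lie under the intensity filter of 100, which thus favoured a higher level on the 8 arrays. At5g47980, the BAHD acyltransferase gene of the thalianol cluster, was the single member that was lower on all 8, with 65.1 to 129 against 169 to 1268 on the 14. Its values at 6 h were 116, 252 and 319 in Fe-deficient roots, against 66.9, 209 and 169 in Fe-sufficient roots, higher without Fe in every replicate. Over all members, the differences taken within the 8 and within the other arrays at 6 and 24 h were above 0 in all 4 cases for 68 members, in 3 for 28 and in 2 for 4. Inside the 8 arrays 80 members were higher without Fe at 6 h and 90 at 24 h, and outside them 99 and 95; the ranking used these values, and they are a description. Ranked again without the 8 arrays, 55 of the members were among the 100 highest.

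The increases were moderate. The median log2 difference of the members was 0.503 at 6 h (lowest 0.339, highest 2.19) and 0.484 at 24 h (lowest 0.342, highest 1.75), while all probe sets past the filter had medians of -0.013 and 0.00409. The 51 probe sets that the study tabulates as raised had medians of 1.06 and 1.16. At both times 14 members exceeded a 1.5-fold and 2 a 2-fold difference, and 53 members had the larger difference at 6 h and 47 at 24 h. With a call defined by p under 0.05 without adjustment together with more than a 1.5-fold change, 8 members were past it at 6 h (0.976% of all probe sets were, upwards) and 6 at 24 h (0.765%). The ranking used these contrasts, and nothing is read from the counts.

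**Figure D2:**
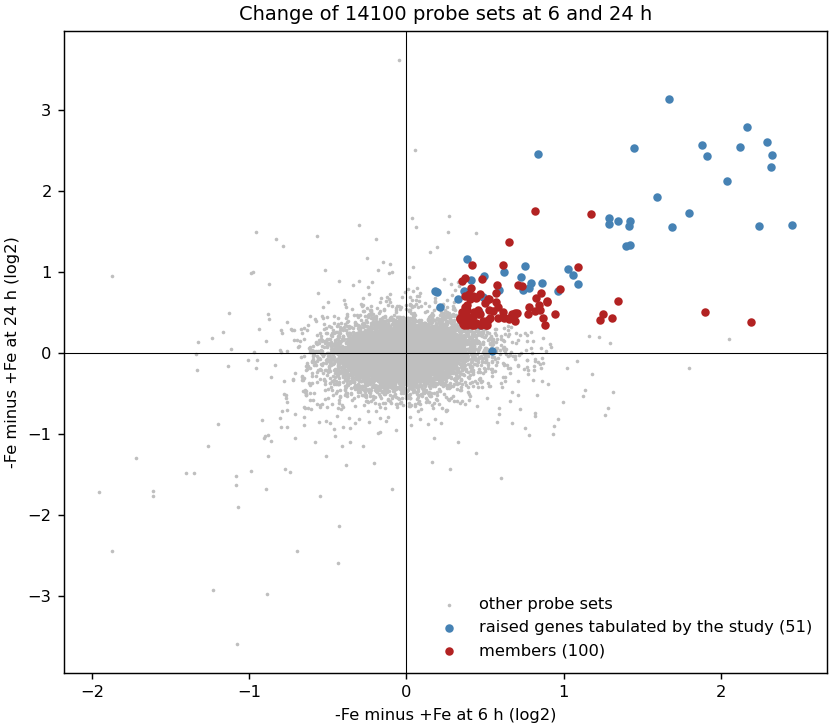
Log2 difference between -Fe and +Fe roots at 6 h (horizontal) and 24 h (vertical) for the 14100 probe sets past the intensity filter, with the 100 members in red, the 51 raised genes tabulated by the study in blue and the rest in grey. The members form a corner above 0.339 and 0.342 on the axes, mostly below the tabulated genes, whose medians are 1.06 and 1.16.

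Every Fe-deficient array lay above every Fe-sufficient array in 25 members at 6 h (2.75% of all probe sets) and in 52 at 24 h (12.1%), in 18 at both times and in 41 at neither, and below every Fe-sufficient array in 0 at either time (3.4% at 6 h and 11.6% at 24 h); at 24 h there are 2 arrays per medium, so that such a separation is easily reached, and the ranking chose for it. The replicate spread of the members was wide, with a median SD of 0.496 in Fe-deficient and 0.446 in Fe-sufficient roots at 6 h on the log2 scale, against 0.243 and 0.231 for all probe sets past the filter. At 6 h replicate 3 of the Fe-deficient roots was the highest of the 6 arrays for 50 members, and replicates 1 and 2 for 25 and 14. Of the probe sets past the filter these shares were 18.3%, 17.2% and 14.7%. For the remaining members the highest array was a Fe-sufficient one. Paired by number at 6 h, the median differences were 0.26, 0.495 and 0.812 for replicates 1, 2 and 3, and 66 members were higher without Fe in all 3 pairs. The ranking used the arrays of 6 h, so that these counts are descriptions. Leaving out one array of 6 h kept 59 to 74 members among the 100 highest, and leaving out one of 24 h kept 43 to 54, the fewest without replicate 2 of the Fe-sufficient roots. In all 10 such rankings 9 members stayed: 253658_at, 248676_at, 249752_at, 259632_at, 260774_at, At1g44160, At3g01350, At1g60610 and At5g01740.

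Of the 5 members assigned to specialised metabolism, UGT72E1 was apart at both times, At1g30760 at 6 h, and At3g32030, At5g47980 and COSY at neither. UGT72E1, which glycosylates the aldehydes of the monolignol pathway, had 1263, 2196 and 2417 in Fe-deficient roots, against 1169.7, 1150.0 and 836 in Fe-sufficient roots at 6 h, and 2608 and 2953 in Fe-deficient roots, against 2130.5 and 1297 in Fe-sufficient roots at 24 h. Both times the Fe-deficient arrays were all above the Fe-sufficient ones, and the log2 differences were 0.86 ± 0.51 (SE) at 6 h and 0.74 ± 0.63 (SE) at 24 h. At 0 and 1 h its arrays spread from 491 to 2504.5 on the Fe-deficient arrays, against 682 to 1869 on the Fe-sufficient arrays, and replicate 2 was the highest of each group. At1g28680 encodes COSY, the acyltransferase-family enzyme that closes the ring of coumarins such as scopoletin, and read 1779.6, 3374 and 4318 in Fe-deficient roots, against 1582, 2694 and 2917 in Fe-sufficient roots at 6 h and 2101 and 4465 in Fe-deficient roots, against 3403 and 1589 in Fe-sufficient roots at 24 h. At 6 h its replicate 1 array was the lowest of each medium, and the media overlapped at both times. The 6 h difference shrank to 0.08 without replicate 3 of the Fe-deficient roots. That omission gave the low replicate 1 array more weight in this medium. Within the arrays set apart above, the log2 difference was 0.17 at 6 h and 0.40 at 24 h. Within the other arrays it was 0.45 and 0.39. Within each set, every Fe-deficient array was above every Fe-sufficient one of its time, so that the overlap joined arrays of different sets. At 24 h each set held only 1 array per medium, as did the arrays set apart at 6 h. The ranking chose COSY by these arrays, and 68 of the 100 members had differences above 0 in both sets at both times. The order within the sets is therefore a description and no evidence about COSY. At1g30760, a berberine bridge enzyme-like oxidase, had 1003, 786 and 663 in Fe-deficient roots, against 656, 355 and 359 in Fe-sufficient roots at 6 h without overlap, and 625 and 1095 in Fe-deficient roots, against 833.5 and 508 in Fe-sufficient roots at 24 h with overlap.

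The members with a RING or F-box domain, folds that typically belong to ubiquitin ligases, included one of the tightest increases. At1g60610, a RING protein of the family named for S-ribonuclease binding, had 429, 467 and 472 in Fe-deficient roots, against 315.5, 271 and 338 in Fe-sufficient roots at 6 h and 660.3 and 719.7 in Fe-deficient roots, against 407 and 421 in Fe-sufficient roots at 24 h. No Fe-sufficient array reached the lowest Fe-deficient one at either time, and the log2 differences were 0.57 ± 0.16 (SE) at 6 h and 0.73 ± 0.19 (SE) at 24 h, the smallest errors among the 20 members of highest rank. Its arrays were also apart at 0 h, with 584, 672 and 421 in Fe-deficient roots, against 419, 406 and 373.5 in Fe-sufficient roots, while at 1 h they overlapped at 353, 392 and 356 in Fe-deficient roots, against 296, 374 and 347 in Fe-sufficient roots. At1g14200, another RING protein, was at 292, 293.5 and 267 in Fe-deficient roots, against 247, 141 and 248 in Fe-sufficient roots at 6 h and at 337 and 369 in Fe-deficient roots, against 233.5 and 272 in Fe-sufficient roots at 24 h, apart at both times by 0.47 ± 0.30 (SE) at 6 h and 0.48 ± 0.36 (SE) at 24 h. At3g06330 (RING) and At3g52030 (F-box with WD repeats) had differences of 0.51 and 0.34 at 6 h and 0.35 and 0.41 at 24 h, and overlapped at 6 h.

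Transport proteins and chaperone-related genes contributed 5 named members. At3g01350, of the proton-coupled peptide and nitrate transporter family, read 333, 344 and 219 in Fe-deficient roots, against 210.4, 222 and 137 in Fe-sufficient roots at 6 h and 400.1 and 521 in Fe-deficient roots, against 153 and 203 in Fe-sufficient roots at 24 h. The lowest Fe-deficient array of 6 h was just under the highest Fe-sufficient one, whereas at 24 h both Fe-deficient arrays were clear of the others, with a log2 difference of 1.37 ± 0.42 (SE). At1g74780, a nodulin-like protein of the major facilitator superfamily, was close to the intensity filter and overlapped at both times. The DnaJ-related At1g44160, whose relatives work with heat shock proteins in folding, had 213, 170.4 and 238 in Fe-deficient roots, against 105, 154 and 94.5 in Fe-sufficient roots at 6 h and 297 and 342 in Fe-deficient roots, against 194 and 206 in Fe-sufficient roots at 24 h, apart at both times. At 0 and 1 h At1g44160 spread from 186 to 342 on the Fe-deficient arrays, against 87.7 to 316 on the Fe-sufficient arrays. The second DnaJ-related gene, At3g14200, had differences of 0.43 and 0.34, and At5g51220, a chaperone of the mitochondrial cytochrome c reductase, 0.38 and 0.59 at 6 and 24 h.

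Among protein kinases and kinase-related genes, At1g33260 and At1g77280 had the larger differences at 24 h. At1g33260 had 383 and 238 in Fe-deficient roots, against 182 and 213 in Fe-sufficient roots at 24 h, apart, and 239, 277 and 247 in Fe-deficient roots, against 280.0, 158 and 129.5 in Fe-sufficient roots at 6 h, where replicate 1 of the Fe-sufficient roots was above every Fe-deficient array. At1g77280 was at 1425 and 1779.8 in Fe-deficient roots, against 1179 and 790.1 in Fe-sufficient roots at 24 h, apart, and at 758, 1665 and 1633 in Fe-deficient roots, against 685, 1241 and 918 in Fe-sufficient roots at 6 h, with overlap. The receptor-like kinase genes At2g23200 and At1g66930 and the secreted kinase-related At1g63590 had mean intensities between 107 and 188 and overlapped at 6 h.

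Of the oxidoreductases, At5g07800, a flavin monooxygenase, was apart at both times but by little, with 115, 126 and 178 in Fe-deficient roots, against 95.3, 102.5 and 110.0 in Fe-sufficient roots at 6 h and 159 and 160.0 in Fe-deficient roots, against 133 and 109 in Fe-sufficient roots at 24 h. At5g62420, of the aldo-keto reductase family that reduces carbonyl compounds, had 139.6, 84.6 and 170.5 in Fe-deficient roots, against 99.7, 82.7 and 72.4 in Fe-sufficient roots at 6 h and 438 and 144 in Fe-deficient roots, against 121 and 162 in Fe-sufficient roots at 24 h, where replicate 1 of the Fe-deficient roots alone was high. At2g38240 encodes a 2-oxoglutarate and Fe(II)-dependent dioxygenase that inactivates jasmonate, and is described with the 1 h values. In the defence-related group, At3g48450, of the family of the immune regulator RIN4, read 924, 699 and 1247 in Fe-deficient roots, against 863, 385 and 808 in Fe-sufficient roots at 6 h with overlap and 987 and 844 in Fe-deficient roots, against 523 and 630.2 in Fe-sufficient roots at 24 h without. The chitinase-family gene At2g43610 read 12413, 11991.5 and 22418.5 in Fe-deficient roots, against 13171, 8897 and 13491 in Fe-sufficient roots at 6 h and 14634.5 and 15224 in Fe-deficient roots, against 9101 and 14225 in Fe-sufficient roots at 24 h. The 6 h difference of At2g43610 was 0.36 with replicate 3 of the Fe-deficient roots and 0.067 without it. Paired by number, replicates 2 and 3 were higher without Fe at 6 h and replicate 1 was lower.

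The member of highest rank has no gene in the annotation used. Probe set 253658_at had 149, 288 and 176 in Fe-deficient roots, against 98.1, 78.8 and 83.4 in Fe-sufficient roots at 6 h and 357 and 345 in Fe-deficient roots, against 141 and 80.2 in Fe-sufficient roots at 24 h. Both times the media were apart, by 1.17 ± 0.43 (SE) at 6 h and 1.71 ± 0.52 (SE) at 24 h, and the Fe-deficient arrays of 24 h were the highest of the series. At 0 and 1 h it spread from 82.4 to 304 on the Fe-deficient arrays, against 84.9 to 183 on the Fe-sufficient arrays, with replicate 2 of the Fe-deficient roots high at 0 and 1 h.

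Probe set 259632_at was as well separated, at 1412, 1773 and 2162 in Fe-deficient roots, against 1174, 1324 and 749 in Fe-sufficient roots at 6 h and 1719 and 1882 in Fe-deficient roots, against 830.1 and 1251 in Fe-sufficient roots at 24 h. At 0 and 1 h its readings spread from 333 to 855 on the Fe-deficient arrays, against 439 to 1155 on the Fe-sufficient arrays. Likewise 260774_at had 514, 377 and 314 in Fe-deficient roots, against 267, 181.5 and 286 in Fe-sufficient roots at 6 h and 761 and 860.1 in Fe-deficient roots, against 423 and 484 in Fe-sufficient roots at 24 h, apart at both times; one Fe-deficient array of 0 h, replicate 1, read 2266, above every other array of this probe set.

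**Figure D3:**
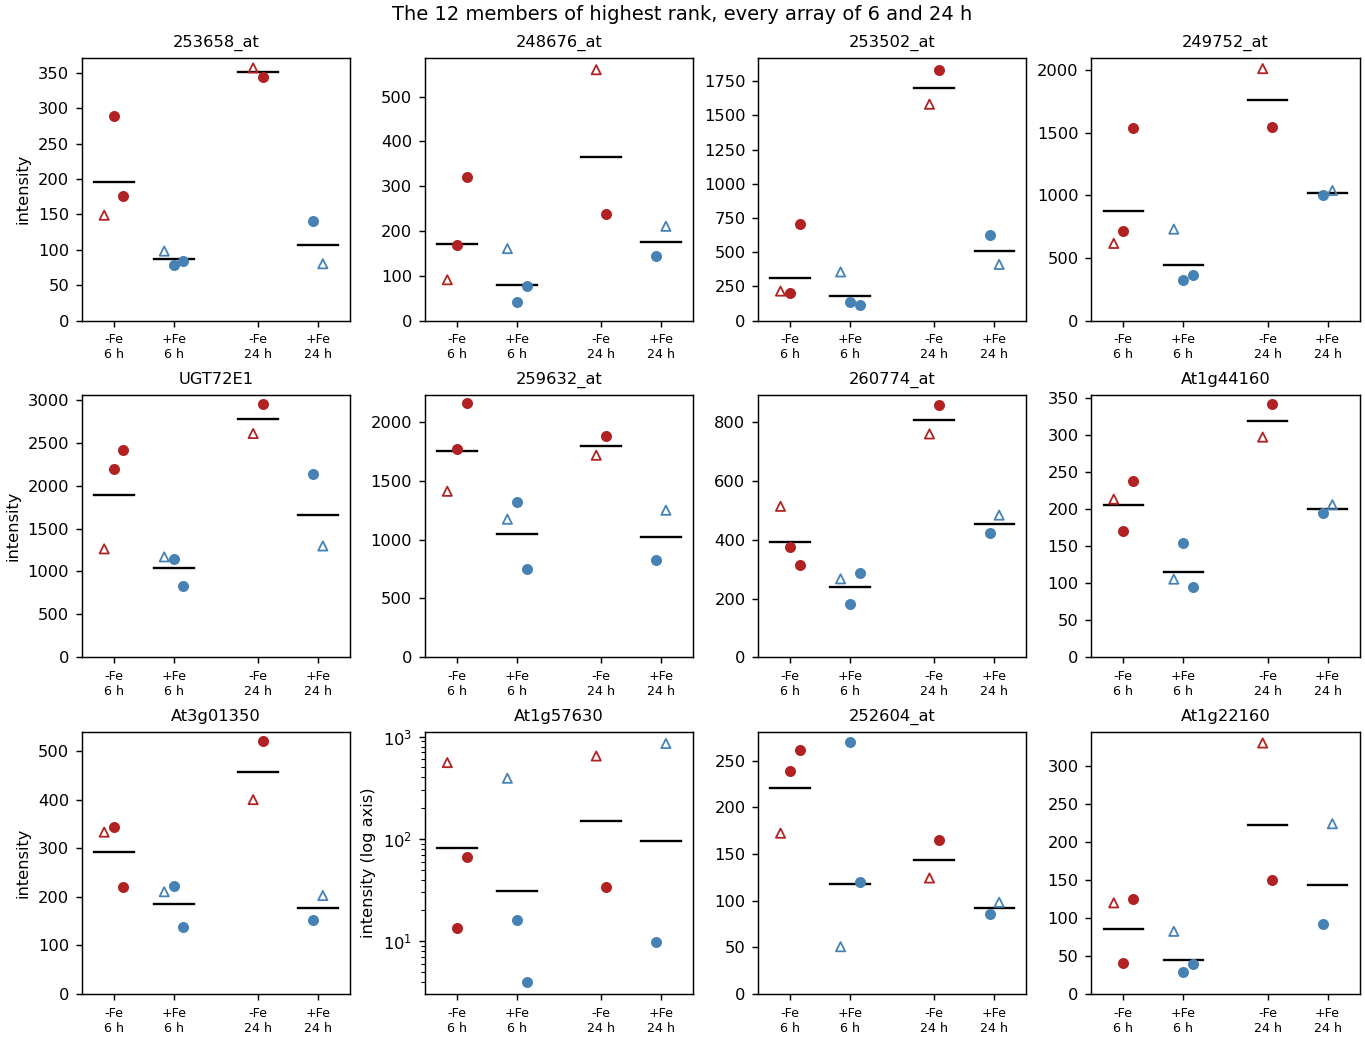
Intensity on a linear axis from 0 (log axis for At1g57630) of the 12 members of highest rank at 6 and 24 h, -Fe (red) left of +Fe (blue); open triangles are the 8 arrays set apart, circles the others and bars the mean of log2 values per group. The -Fe arrays of 253658_at lie at 149 to 357 and its +Fe arrays at 78.8 to 141.

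For 249752_at the values were 616, 711 and 1534 in Fe-deficient roots, against 729.8, 327 and 365 in Fe-sufficient roots at 6 h and 2012 and 1543 in Fe-deficient roots, against 1006 and 1038 in Fe-sufficient roots at 24 h. Replicate 1 of the Fe-sufficient roots exceeded the Fe-deficient arrays 1 and 2 at 6 h, and the groups were apart at 24 h only. Probe set 248676_at read 91.0, 169 and 321.5 in Fe-deficient roots, against 161, 40.8 and 76.0 in Fe-sufficient roots at 6 h, with overlap, and 560.1 and 237.5 in Fe-deficient roots, against 145 and 210.4 in Fe-sufficient roots at 24 h, without. Probe set 253502_at had 1582 and 1833 in Fe-deficient roots, against 626 and 410.1 in Fe-sufficient roots at 24 h, the largest 24 h difference of the members at 1.75 ± 1.53 (SE). Its 6 h values of 215, 200.3 and 706 in Fe-deficient roots, against 355, 136 and 113 in Fe-sufficient roots depended on replicate 3 of the Fe-deficient roots, without which the difference was 0.23, and at 0 h it ranged over 53.7, 1013 and 8.9 in Fe-deficient roots, against 164, 699 and 229 in Fe-sufficient roots.

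The other probe sets among the 20 of highest rank were less even. Values of 250983_at were 1606, 1886 and 4587 in Fe-deficient roots, against 1585, 1159 and 2112 in Fe-sufficient roots at 6 h and 3269 and 4379 in Fe-deficient roots, against 2135 and 1489 in Fe-sufficient roots at 24 h. All 3 same-numbered pairs of 6 h were higher without Fe. The 6 h difference of 250983_at was 0.61, and 0.15 without replicate 3 of the Fe-deficient roots. Probe set 252604_at had 172, 239 and 261 in Fe-deficient roots, against 50.6, 270.1 and 119.8 in Fe-sufficient roots at 6 h, where one Fe-sufficient array was the highest, and 124 and 165 in Fe-deficient roots, against 85.8 and 98.2 in Fe-sufficient roots at 24 h. At 6 h 245807_at had 150.3, 113 and 168 in Fe-deficient roots, against 125, 58.5 and 116 in Fe-sufficient roots, and 255872_at 376.5, 311.5 and 804 in Fe-deficient roots, against 321, 238 and 376 in Fe-sufficient roots. At 24 h 245807_at had 192 and 211 in Fe-deficient roots, against 142 and 131 in Fe-sufficient roots, and 255872_at 917 and 555 in Fe-deficient roots, against 376 and 565 in Fe-sufficient roots. At1g22160 read 119.7, 41.0 and 124 in Fe-deficient roots, against 82.3, 28.7 and 38.9 in Fe-sufficient roots at 6 h and 329.8 and 149.9 in Fe-deficient roots, against 91.4 and 224 in Fe-sufficient roots at 24 h. Overlap was absent at 24 h in 250983_at, 252604_at and 245807_at and present in 255872_at and At1g22160.

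The members that were apart at both times and have not been given were At3g51540, 260287_at, At3g27270, At5g19970, At5g12010, At2g23960, 267298_at, At5g54530, 256186_at and At2g34910. Among them At5g19970 had 629, 708 and 793 in Fe-deficient roots, against 570.2, 342 and 252 in Fe-sufficient roots at 6 h and 1366 and 957 in Fe-deficient roots, against 784 and 851 in Fe-sufficient roots at 24 h. At2g23960, of the class I glutamine amidotransferase family, read 242, 191 and 253 in Fe-deficient roots, against 186, 168 and 160.1 in Fe-sufficient roots at 6 h and 366.5 and 395 in Fe-deficient roots, against 222 and 261 in Fe-sufficient roots at 24 h. Probe set 256186_at was at 8173, 6929 and 8954.5 in Fe-deficient roots, against 5853, 6124 and 6442 in Fe-sufficient roots at 6 h and 8213 and 10364 in Fe-deficient roots, against 6841 and 6033 in Fe-sufficient roots at 24 h. In each of these 3 no Fe-sufficient array came up to the lowest Fe-deficient one of its time.

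One array, replicate 3 of the Fe-deficient roots at 6 h, carried the 6 h difference of several members. Probe set 266719_at read 35.6, 20.9 and 886 in Fe-deficient roots, against 5.6, 28.1 and 37.6 in Fe-sufficient roots at 6 h, the largest 6 h difference of all at 2.19 ± 1.12 (SE), and 251869_at read 39.5, 38.8 and 1015 in Fe-deficient roots, against 14.3, 37.4 and 52.4 in Fe-sufficient roots, with 1.90 ± 0.89 (SE). Probe set 256266_at had 95.3, 117 and 647 in Fe-deficient roots, against 99.1, 132 and 131 in Fe-sufficient roots. In all 3 the array stood near or above the values of 0 h, which were 279, 192 and 564 in Fe-deficient roots, against 227, 125 and 645 in Fe-sufficient roots for 266719_at and 403, 376.5 and 618 in Fe-deficient roots, against 589, 310.0 and 667 in Fe-sufficient roots for 256266_at, while the other 5 arrays of 6 h were far lower. Without this array the 6 h differences were 0.54 for 266719_at, 0.35 for 251869_at and -0.18 for 256266_at. Over all members the median 6 h difference was 0.495 without it and 0.503 with it; 98 members stayed above 0, and 33 had a difference under 0.339, the smallest value inside the set.

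The harvests at 0 and 1 h did not enter the ranking and could be tested. At 0 h the median log2 difference of the members was 0.047, with 60 of 100 above 0, against -0.00453 and 48.9% for all probe sets past the filter. At 1 h it was 0.0891 with 65 above 0, against 0.00161 and 50.4%. With one array left out, the median at 0 h ran between -0.0336 without replicate 3 of the Fe-sufficient roots and 0.163 without replicate 3 of the Fe-deficient roots. At 1 h it ran between 0.00422 without replicate 2 and 0.201 without replicate 1 of the Fe-sufficient roots. The medians by replicate pair were 0.026, 0.132 and -0.009 at 0 h and -0.017, 0.166 and -0.012 at 1 h, so that replicate 2 alone gave a median above the others. The tabulated raised genes had medians of -0.0456 and 0.222.

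**Figure D4:**
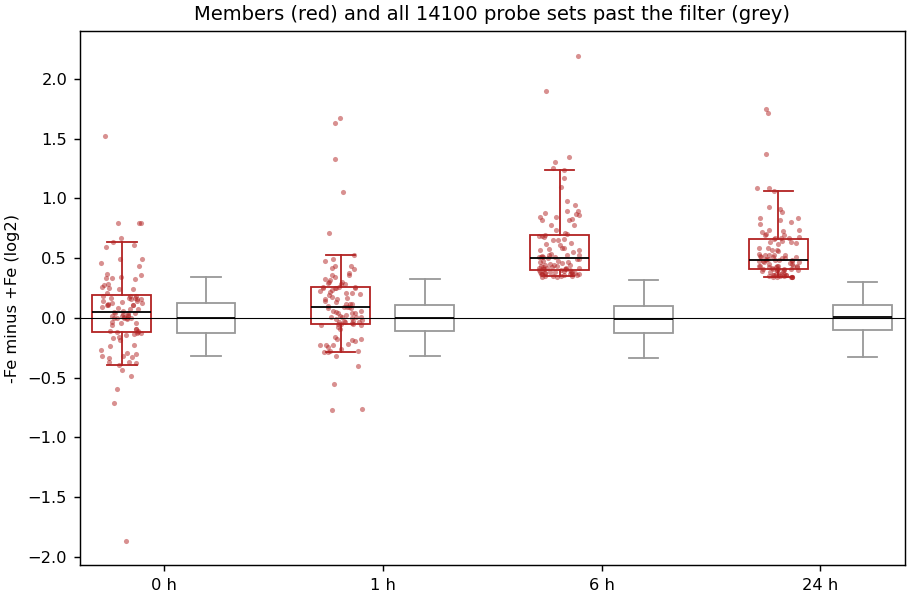
Log2 difference between -Fe and +Fe roots at each harvest for the 100 members (red points and boxes, left) and all 14100 probe sets past the filter (grey boxes, right); boxes span the quartiles, lines the medians and whiskers the 5th to 95th percentile. The members' medians are 0.047, 0.0891, 0.503 and 0.484; the values at 6 and 24 h were used for the choice.

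At 0 h 1 member was higher without Fe (1.41% of all probe sets were) and 1 was lower (0.637%), and neither had an adjusted p below 1 with limma. At3g51540 had 215, 130.5 and 155 in Fe-deficient roots, against 89.8, 102 and 133 in Fe-sufficient roots at 0 h, 0.61 ± 0.23 (SE), with replicate 1 of the Fe-deficient roots highest and overlap between a single array of each medium. At2g34910 had 199, 105 and 181.5 in Fe-deficient roots, against 269.5, 269 and 180.5 in Fe-sufficient roots, -0.59 ± 0.26 (SE). Its lowest Fe-sufficient array was under 2 of the Fe-deficient ones. The count of 2 became 0 without replicate 2 of the Fe-sufficient roots of 0 h. Leaving out replicate 1, 2 or 3 of the Fe-deficient roots of 0 h gave 1, 4 and 5.

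At 1 h no member passed in either direction (1.17% of all probe sets were higher and 0.703% lower), and 0 had an unadjusted p under 0.05 (2.39% of all probe sets). Without replicate 1 of the Fe-sufficient roots 2 passed, At2g38240 and At1g30760, and without replicate 3 of the Fe-deficient roots 3 did, these and 253259_at. Leaving out the 8 arrays set apart gave 3 others, 254510_at, 248978_at and At1g66930, the first 2 of them at near-background readings. Complete separation of the media was seen in 3 members upwards (3.39%) and 1 downwards (2.84%) at 0 h, and in 2 upwards (2.7%) and 0 downwards (2.33%) at 1 h. The one member apart at 0, 1 and 6 h was 251839_at, singled out after its values had been seen. It had 706, 587 and 596 in Fe-deficient roots, against 512, 536 and 501 in Fe-sufficient roots at 0 h and 642, 646 and 630.0 in Fe-deficient roots, against 622, 544 and 477 in Fe-sufficient roots at 1 h. At 6 h it had 619, 612.5 and 647.5 in Fe-deficient roots, against 451, 573.5 and 429.6 in Fe-sufficient roots, and at 24 h 587.5 and 748 in Fe-deficient roots, against 401 and 599 in Fe-sufficient roots, where the media overlapped. Its differences of 0.28 ± 0.16 (SE, adjusted p = 1) at 0 h and 0.23 ± 0.16 (SE, adjusted p = 1) at 1 h did not pass the limma test.

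The difference between the media changed from 0 to 1 h in 2 members upwards (1.12% of all probe sets) and 0 downwards (1.31%), both at an adjusted p of 1. They were At2g34910, by 0.91 ± 0.37 (SE), and the receptor-like kinase gene At1g66930, by 0.78 ± 0.35 (SE), which had 102, 78.9 and 77.0 in Fe-deficient roots, against 71.5, 168 and 112 in Fe-sufficient roots at 0 h and 95.3, 136 and 121 in Fe-deficient roots, against 95.3, 88.7 and 77.5 in Fe-sufficient roots at 1 h. The count was 0 without replicate 2 of the Fe-sufficient roots at 0 h or at 1 h and without replicate 3 of the Fe-deficient roots at 1 h. It was 1 without replicate 3 of the Fe-deficient roots at 0 h or of the Fe-sufficient roots at 1 h.

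Between 0 and 1 h few members passed the criterion, and none of them had an adjusted p under 0.05 with limma. An unadjusted p under 0.05 was reached by 6 members in Fe-deficient roots (4.66% of all probe sets) and 5 in Fe-sufficient roots (4.37%). In Fe-deficient roots 4 members were higher at 1 h than at 0 h (1.53% of all probe sets) and 1 was lower (1.92%). In Fe-sufficient roots 3 were higher (1.25%) and 1 was lower (1.71%). The lower one was 253259_at, by -3.01, which passed the intensity filter only through its 0 h arrays. Both totals, 5 and 4 of 100, were near the 3.44% and 2.97% of all probe sets and are not a result about the members. At2g38240, the jasmonate-inactivating dioxygenase, had 1526, 772 and 90.7 in Fe-deficient roots at 1 h, against 32.1, 63.0 and 109 at 0 h. In Fe-sufficient roots it had 799, 75.7 and 58.7 at 1 h, against 40.7, 5.4 and 35.8 at 0 h. The log2 changes were 2.95 ± 1.07 (SE, adjusted p = 0.926) without Fe and 2.85 ± 1.07 (SE, adjusted p = 1) with Fe by limma, and replicate 1 was the highest 1 h array of both media. Since the gene passed the intensity filter only through its 1 h arrays, with a mean of 52.1 over the other harvests, a higher level at 1 h was built into its membership. At 6 h the gene was at 182.5, 51.1 and 48.8 in Fe-deficient roots, against 23.5, 47.4 and 28.7 in Fe-sufficient roots, apart, with replicate 1 of the Fe-deficient roots again the highest.

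At3g48450 and At5g12010 passed the criterion in both media. At3g48450 was higher at 1 h by 0.99 ± 0.35 (SE) in Fe-deficient and 0.80 ± 0.35 (SE) in Fe-sufficient roots, and At5g12010 by 0.81 ± 0.24 (SE) in Fe-deficient and 0.67 ± 0.24 (SE) in Fe-sufficient roots. For At5g12010 the 1 h arrays read 1634.5, 1644 and 886 in Fe-deficient roots, against 1163, 1235 and 964 in Fe-sufficient roots, and the 0 h arrays 729.9, 873 and 686 in Fe-deficient roots, against 617.5, 964 and 571 in Fe-sufficient roots, with the 1 h arrays above those of 0 h in Fe-deficient roots and the lowest 1 h array level with the highest 0 h array in Fe-sufficient roots. At1g30760 differed by 1.09 ± 0.42 (SE) in Fe-deficient roots, and 258629_at by -0.97 ± 0.45 (SE). All 4 changes of At3g48450 and At5g12010 and both of the last genes had adjusted p of 0.743 or more with limma. In Fe-deficient roots the count of 5 was 8 without replicate 3 of 0 h and 3 without replicate 1 of 1 h, and in Fe-sufficient roots the count of 4 was 7 without replicate 1 of 1 h and 7 with the replicate number as a block.

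Probe set 253259_at had its highest group means at the start. It had 776, 400.3 and 162 in Fe-deficient roots, against 1248, 126 and 228 in Fe-sufficient roots at 0 h and 288, 214 and 35.1 in Fe-deficient roots, against 54.4, 46.9 and 25.0 in Fe-sufficient roots at 1 h. The log2 difference of 1.67 at 1 h was the largest of the members at that time, with Fe-deficient roots higher in all 3 pairs. The media overlapped there, and the difference did not pass the criterion. By 6 h it was at 36.9, 18.0 and 14.3 in Fe-deficient roots, against 33.1, 5.4 and 19.1 in Fe-sufficient roots, and at 24 h at 30.0 and 21.9 in Fe-deficient roots, against 6.7 and 34.3 in Fe-sufficient roots. Every array of 6 and 24 h was below every array of 0 h. It passed the intensity filter only through its 0 h arrays, with a mean of 55.2 over the other harvests. A lower level after 0 h was thus built into its membership. Nothing is read from its calls as lower, at 1 h in Fe-sufficient roots and at 6 and 24 h on average of the media. The differences that placed 253259_at among the members came from readings of 5.4 to 36.9.

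**Figure D5:**
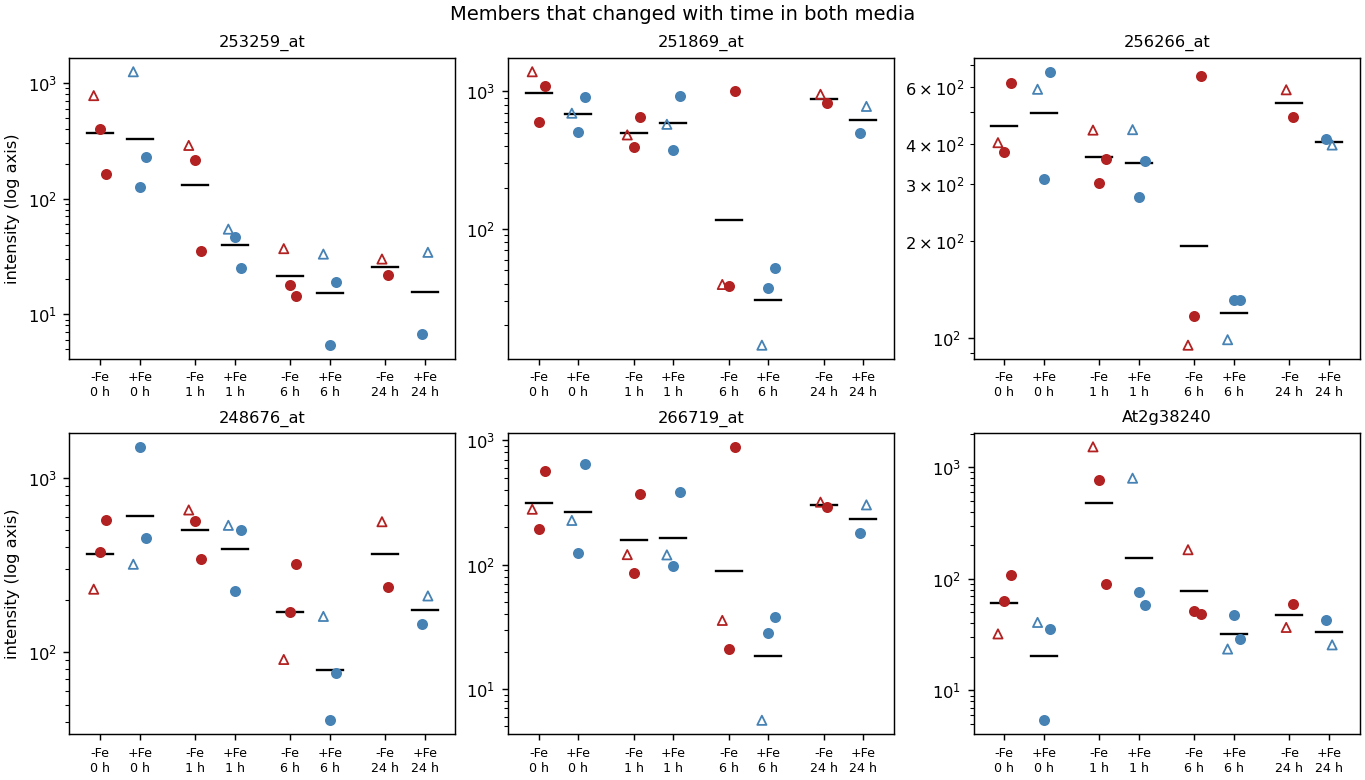
Intensity on a log axis of 6 members at the 4 harvests, -Fe (red) left of +Fe (blue); open triangles are the 8 arrays set apart, circles the others and bars the mean of log2 values per group. Probe set 251869_at lies at 14.3 to 52.4 on 5 arrays of 6 h and at 1015 on the sixth, replicate 3 of the -Fe roots.

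Between 0 and 6 h, 4 members rose (2.31% of all probe sets) and 7 fell (2.31%) on average of the media. These contrasts hold the arrays that chose the members, the mean over the media carries part of the chosen difference, and 253259_at and 252604_at are among the 11 through the harvest that let them pass the filter. Besides 253259_at, 251869_at fell by 3.74 (SE 0.63, adjusted p = 0.0104), and the other 5, at adjusted p of 0.055 or more, were 256266_at, 248676_at, 266719_at, 249752_at and 255872_at. At 0 h 251869_at had 1389.8, 597.5 and 1089 in Fe-deficient roots, against 694, 509 and 912.5 in Fe-sufficient roots, and at 24 h it was back at 952.5 and 821 in Fe-deficient roots, against 498 and 778 in Fe-sufficient roots. At 24 h 251869_at, 266719_at and 256266_at read within or close to the range of their 0 h arrays, which were taken at the same hour of the day. Those that rose were 259632_at, by 0.91 ± 0.24 (SE, adjusted p = 0.104), 253054_at, 250597_at and 252604_at.

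From 0 to 24 h, 15 members rose (1.39%) and 1 fell (2.64%). The median change was 0.346 for the members and 0.00593 for all probe sets past the filter. The member that fell was 253259_at, which passed the filter only through its 0 h arrays. The 15 hold the Fe-deficient arrays that were chosen for being high, and the number is no support for a change with time. Taken by medium, the median change of the members from 0 to 24 h was 0.555 in Fe-deficient and 0.135 in Fe-sufficient roots, and from 0 to 6 h 0.263 and -0.249, while the medians of all probe sets past the filter stayed between 0.000413 and 0.0136. At 6 h 27 of the 100 members were above their 0 h mean in Fe-sufficient roots, and 70 in Fe-deficient roots. The ranking chose probe sets high on Fe-deficient and low on Fe-sufficient arrays at 6 and 24 h. A gap between the media in these changes was therefore built in, and nothing is read from it. The 5 of the 15 with the smallest p were At5g19970, At5g54530, 259632_at, At2g34910 and At5g62420, with adjusted p of 0.244 or more; At5g62420 passed the intensity filter only through its 24 h arrays. The total of 16 was 9 without replicate 3 of the Fe-deficient roots at 0 h and 9 without replicate 1 of the Fe-sufficient roots at 24 h.

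The members varied together little where they had not been chosen. Over the 12 arrays of 0 and 1 h, the mean correlation of deviations from the group means was 0.0552 between pairs of members and 0.0131 between pairs of the other probe sets past the filter, with 53.9% of the member pairs above 0. The closest pairs, with r of 0.989, joined At3g32030 to 254510_at and to 248978_at, all from the split between the 8 arrays and the rest. All points of these correlations come from the same 12 arrays. Of the named members, 2 stand next to a gene tabulated by the study, At1g14200 beside At1g14190 and At1g74780 beside At1g74770, as did 38 of 7472 ranked loci (0.509%).

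Of the pathway genes looked up by locus, 2 were members, COSY and UGT72E1, both from the list of the Fe-deficiency response. Of the 31 genes of that list, 8 had a named probe set, and the rest had none in the annotation used and were not read. In either direction 0 of the 8 passed the criterion at 0, 1, 6 or 24 h. Of all probe sets 2.04%, 1.87%, 2.13% and 1.47% passed at these times, so that 0 of 8 is no result about the list. The median differences of the 8 were 0.134 at 6 h and 0.175 at 24 h, against -0.0222 and -0.000102 for all probe sets. The other lists had 0 to 4 named probe sets. Of the root hair markers 2 of 7 were named, with a median intensity of 259, and of the photosynthesis genes 3 of 18, with 76.6. Markers of the endodermis, xylem, phloem and dividing cells had none. Intensities of different probe sets are not comparable, so that these few could not check the root label.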

How the data were processed

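Total root RNA had been hybridised to 22 ATH1 arrays. The table deposited by the authors holds a linear intensity for each probe set on each array. The methods of the study describe probe-level modelling in AffylmGUI, whose values are log2, whereas the trimmed means of the linear values are nearly equal between arrays; which program made the deposited intensities is not given in the sources used here. The number of arrays limits the precision.

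Intensities plus 1 were taken to log2. After removal of 64 controls, 22746 probe sets were fitted with limma 3.58.1 (lmFit, contrasts, eBayes) in R 4.3.3 with a mean for each of 8 groups and no block (residual df 14, prior df 1.81). The code was first tested on simulated data. A call needed more than a 1.5-fold change and p under 0.05 before adjustment; adjusted p-values (Benjamini-Hochberg) cover all probe sets. Errors of log2 differences are standard errors of this fit. p-values measure the spread between these arrays. Intensities are listed in the order of the replicate numbers.

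The members and the gene lists were chosen with earlier results of these data known. Named in the text are the 20 members of highest rank, members called in a tested contrast (up to 5 per direction), members of a gene list, members of most functional groups and the 3 probe sets on either side of the limit of rank. Of the hydrolases, scpl16 and At4g08160 are not described, and At4g10510 is given only for its split between arrays. Further members that were apart at both times, or that showed a pattern across arrays, were named after their values had been seen. The functional groups were assigned by hand from known gene families after the members had been seen. Symbols were taken from the annotation of the array and the TAIR10.1 gene table, used for names and neighbours alone; 13513 probe sets had 1 symbol, 503 several and 8730 none.

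Replicate numbers pair the arrays at 0, 1 and 6 h. Same-numbered arrays of the 2 media had correlated deviations from their group means, with r of 0.408, 0.208 and 0.238 for replicates 1 to 3 at 0 h. At 1 h r was 0.448, 0.177 and 0.243, and 6 h gave 0.398, 0.197 and 0.124, each above 0.1. Alternatives were quantile normalization, a pseudocount of 32, other intensity filters, replicate blocks, fewer arrays and, chosen after seeing the data, the omission of 8 arrays and a crossed pairing.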

Additional observations from a re-analysis of the deposited data

How the results depend on the processing

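Under the alternatives run, the differences of At3g51540 and At2g34910 at 0 h kept their direction, but each stayed called in 8 and lost its call in 6. At3g51540 fell from 0.608 to 0.289 without the 8 arrays set apart. At2g34910 went from -0.592 to -0.307 without replicate 2 of the Fe-deficient roots of 0 h. The 2 calls at 0 h became 1 with quantile normalization, 1 with a pseudocount of 32 and 1 with only the 12 arrays of 0 and 1 h, and 0 to 5 when one array was left out. The 0 calls at 1 h became 1 (253259_at) with a replicate block within time and 3 without the 8 arrays set apart, and 0 to 3 with one array left out. Calls of 1 h against 0 h ranged from 3 to 8 in Fe-deficient and from 4 to 7 in Fe-sufficient roots with one array left out, and the 4 calls in Fe-sufficient roots became 7 with the replicate block. The calls between 0 and 24 h ranged from 9 to 20 and those between 0 and 6 h from 8 to 14 with one array left out. The change of the difference between the media was called in 0 members with the 12 arrays of 0 and 1 h alone and in 0 to 3 with one array left out. With the replicate block 3 members were called at 0 h, 0 at 1 h, and 17 between 0 and 24 h, so that it changed no other count by over 1.5 times. At 24 h same-numbered arrays correlated by -0.407 and crossed ones by 0.407; crossing the numbers there gave 16 calls between 0 and 24 h and 11 between 0 and 6 h.

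Of the members, 2 stayed among the 100 highest with no filter on intensity, 55 without the 8 arrays and 43 to 74 with one array of 6 or 24 h left out, and 92 with quantile normalization. The median differences with one array left out were -0.0336 to 0.163 at 0 h and 0.00422 to 0.201 at 1 h. With 1 array per medium left at 24 h, the lone array was assumed to vary like the other groups. Readings near background limit the members under an intensity of 32. A block within time was not used for changes between times in 1 medium or on average of the media. For the change of the difference between the media from 0 to 1 h it gave 2 calls, 1 upwards and 1 downwards, against 2 and 0 without a block. Promoter motifs were not analysed here.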
